A study of Mus musculus with 24 samples.

Results

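The expression of neuronal activity genes was compared between adult mice whose hippocampus held high and low Fos mRNA, among the 18 mice in which Egr1 was intact. Hippocampal polyA RNA of 24 mice was sequenced, 3 females and 3 males of each of 4 genotypes. Egr1wt NesCre- mice were wild type, Egr1wt NesCre+ mice carried the Nestin-Cre transgene alone, and Egr1f NesCre- mice carried floxed Egr1 alleles alone. Egr1f NesCre+ mice carried both and lost Egr1 in the Nestin lineage, which includes neurons and most glia, and are called Egr1cKO. The floxed allele came from a C57BL/6N strain and the Nestin-Cre line from a B6 background. The labels give no treatment, no age beyond what the methods call adult, and no pooling of mice. The hour of collection and the handling of each mouse before it are not given in the sources used here. Mouse numbers of the Egr1wt and the Egr1f animals came from separate ranges, so these series of mice and the floxed allele cannot be told apart.

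The groups were chosen by a measured value. Fos was expressed as CPM, the count of a gene scaled to 1000000 counts of that mouse, and the 18 Egr1-intact mice were ranked by it. The 6 highest are the high-Fos mice, the 6 lowest are the low-Fos mice, and the 6 others lie between them. These are 12 of the 24 mice of the series. Since the ranking used these libraries, the contrast of high-Fos with low-Fos mice is a description and carries no test. The 6 Egr1cKO mice were not ranked and were placed on the Fos axis afterwards. Tests were made only between labelled groups and within the Egr1cKO mice.

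Immediate early genes are transcribed within minutes of synaptic input, without new protein synthesis. Calcium entering through glutamate receptors and channels activates kinases that phosphorylate CREB and SRF cofactors already bound at their promoters. The first transcripts encode transcription factors such as the FOS and JUN proteins of AP-1, the EGR and NR4A families and NPAS4. Others encode effectors that act at the synapse, such as ARC, or phosphatases and antiproliferative proteins that limit the signal. In the hippocampus their mRNAs are widely used as a record of recent activity, and EGR1 is itself a member of this group.

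Fos in the high-Fos mice was 26.7, 32.7 and 54.1 CPM (lowest, median and highest of 6 mice). It was 4.34, 9.32 and 14.0 CPM in the low-Fos mice and 15.0, 20.7 and 24.7 CPM in the mice between them. The ratio of the means of the high-Fos and low-Fos groups was 3.73, a value that the ranking fixed. At the upper limit the last high-Fos mouse had 26.7 CPM and the next mouse 24.7 CPM. At the lower limit the last mouse between the groups had 15.0 CPM and the first low-Fos mouse 14.0 CPM. The steps at both limits were thus small, and the limits do not mark gaps. Larger steps lay inside the groups, from 54.1 to 37.0 CPM in the high-Fos group and from 23.8 to 17.7 CPM among the mice between.

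**Figure D1:**
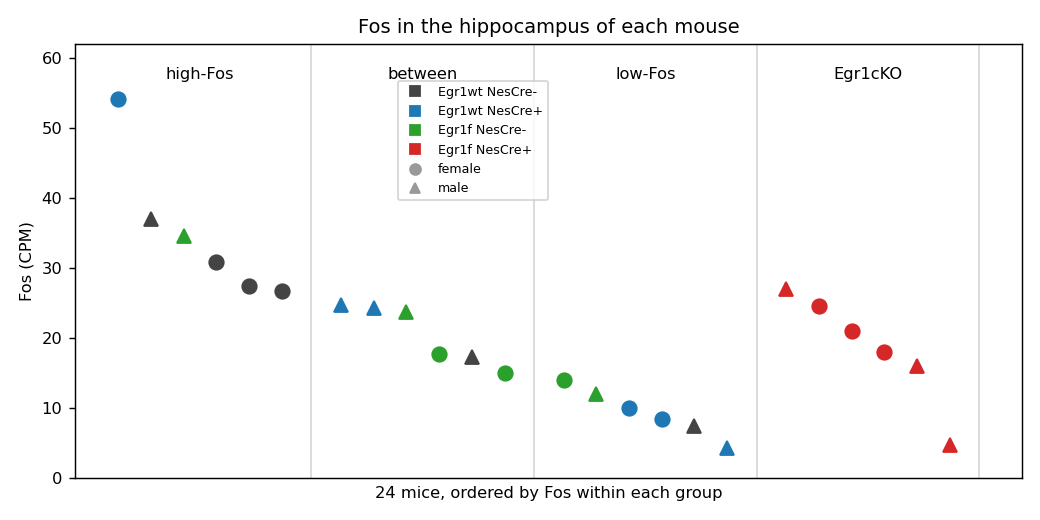
Fos level (CPM, y axis) of each of the 24 mice (x axis, ordered by Fos within each group), coloured by genotype, with circles for females and triangles for males. The 18 Egr1-intact mice run from 54.1 to 4.34 CPM, and the 6 Egr1cKO mice from 27.0 to 4.70 CPM.

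Genotype and sex were not balanced over the ranking. The high-Fos group held 4 Egr1wt NesCre- mice, 1 Egr1wt NesCre+ mouse and 1 Egr1f NesCre- mouse, with 4 females and 2 males. The low-Fos group held 1, 3 and 2 mice of these genotypes in the same order, with 3 females and 3 males. Total counts were 18817037 to 25335139 per mouse in the high-Fos group, 18413714 to 24995142 in the low-Fos group and 18025168 to 34955004 over all 24 mice.

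Some libraries stood apart from the others in single genes. Ttr, which encodes the thyroid hormone carrier transthyretin of the choroid plexus, reached at least 100 CPM in 5 of the 24 mice, of which 2 were high-Fos, 1 low-Fos, 1 between them and 1 Egr1cKO. The female Egr1wt NesCre+ replicate 1, which had the highest Fos, also had the highest Ttr (1993 CPM) and 329.6 CPM of the transcription factor Mef2c. The Egr1cKO mouse with the highest Fos, male replicate 3, had 273 CPM of Mef2c. Mef2c was between 114 and 170.2 CPM in the other 22 mice. The part of these differences in the activity genes was not tested, and the values without these mice are given below. Summed CA1 pyramidal cell markers were 572 to 686 CPM in high-Fos and 532 to 651 CPM in low-Fos mice, so hippocampal markers were present, although the labels also name an endocrine cell type.

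The genes that separated the groups with the highest ratios were mostly immediate early genes. Of 15150 genes with a mean of at least 1 CPM over the 18 mice, Fos left out, 23 were higher in all 6 high-Fos mice than in any low-Fos mouse (0.152%), and 15 were lower without overlap (0.0990%). Of the 62 genes on 5 lists of activity genes, 60 passed the limit on the mean, and 10 of these were higher without overlap (16.7%) and 0 lower. These genes, which are 10 of the 12 with the highest ratios among the 23, were Egr2, Npas4, Dusp1, Ccn1, Ier2, Arc, Btg2, Junb, Nr4a1 and Trib1. The median log2 ratio of the 60 genes was 0.18, against 0.00 over the 15150 genes, and 46 of the 60 had a ratio above 1. The lists were chosen with earlier results of these data known, so these shares are a description and no independent check. The 2 genes that did not pass were Fosl1 and Batf3. In whole tissue, fewer active cells and less RNA per active cell cannot be told apart.

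Among AP-1 factors, 1 of 6 measured genes separated the groups. Junb, which pairs with FOS proteins, was 88.1, 109.7 and 119 CPM (lowest, median, highest) in high-Fos mice and 34.7, 61.0 and 68.9 CPM in low-Fos mice, a log2 ratio of 0.95. Fosb, the closest paralog of Fos, was 16.2, 20.5 and 23.2 CPM in high-Fos mice and 6.44, 11.4 and 16.8 CPM in low-Fos mice, so the groups overlapped narrowly, with a log2 ratio of 0.81. Jun was 85.4 to 115 CPM in high-Fos and 89.7 to 121 CPM in low-Fos mice, with a log2 ratio of -0.06. The log2 ratios of Fosl2, Jund and Atf3 were 0.15, 0.16 and 0.11. The AP-1 partners of Fos were thus spread from a clear separation of Junb to an even level of Jun.

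EGR and NR4A factors had the highest median of the 5 activity lists, 0.46, and 2 of 6 separated the groups. Egr2, a zinc finger factor known for its role in myelinating Schwann cells and induced by activity in neurons, was 8.41, 10.8 and 12.7 CPM in high-Fos mice. In low-Fos mice Egr2 was 0.706, 3.18 and 4.59 CPM, and its log2 ratio of 1.90 was the highest among the activity genes. Nr4a1, an orphan nuclear receptor, was 104, 117 and 136 CPM in high-Fos mice and 39.7, 61.5 and 83.3 CPM in low-Fos mice, a log2 ratio of 0.95. For Nr4a1 the 6 high-Fos mice were the 6 highest of all 18. Egr4 had a log2 ratio of 0.62 with overlap, and Nr4a3, Nr4a2 and Egr3 had 0.30, 0.29 and 0.16. Egr1 overlapped as well, at 99.6, 111 and 131 CPM in high-Fos mice against 48.3, 68.9 and 147 CPM in low-Fos mice. The low-Fos mouse with 147 CPM was the female Egr1f NesCre- replicate 1.

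Among the 12 other immediate early factors, Npas4 and Ier2 separated the groups. Npas4, a neuronal factor that responds to calcium entry and adjusts inhibitory synapses, was 20.5, 23.8 and 67.3 CPM in high-Fos mice. It was 6.57, 8.79 and 14.1 CPM in low-Fos mice, a log2 ratio of 1.73. The value of 67.3 CPM belonged to the female Egr1wt NesCre+ replicate 1, and the other 5 high-Fos mice were between 20.5 and 27.4 CPM. Ier2, a small nuclear protein, was 7.42, 10.1 and 17.3 CPM in high-Fos and 2.17, 4.67 and 6.16 CPM in low-Fos mice, a log2 ratio of 1.27. Maff, a small MAF factor, had a log2 ratio of 0.99, but its groups overlapped at 1.06 to 2.15 and 0.214 to 1.65 CPM. Klf10, Crem, Klf4, Bhlhe40 and Nfil3 lay between -0.09 and 0.04.

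Of 16 synaptic and secreted effectors, Arc and Ccn1 separated the groups. Arc, which encodes a postsynaptic protein that removes AMPA receptors from the surface, was 199, 242 and 283 CPM in high-Fos mice and 73.9, 108 and 159 CPM in low-Fos mice. The log2 ratio of Arc was 1.10, and 5 of the 6 high-Fos mice were among the 6 highest of the 18 for Arc. Ccn1, a secreted matrix-associated protein, was 5.37, 8.68 and 14.9 CPM in high-Fos and 2.33, 3.93 and 4.97 CPM in low-Fos mice, a log2 ratio of 1.30. Several other effectors lay near even. The log2 ratio of Bdnf, the neurotrophin, was 0.11. That of Nptx2, a secreted pentraxin, was 0.05, that of Vgf, a neuropeptide precursor, was -0.07, and that of Homer1, a postsynaptic scaffold, was -0.12. Inhba, a subunit of activin, had -0.32, with 8.99 to 11.1 CPM in high-Fos and 7.96 to 16.8 CPM in low-Fos mice. The list as a whole had a median of 0.04.

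Of 20 signalling brakes and kinases, 3 separated the groups and 17 had a ratio above 1. Dusp1, a phosphatase that inactivates MAP kinases, was 18.4, 25.4 and 48.0 CPM in high-Fos mice and 6.57, 10.5 and 17.0 CPM in low-Fos mice, a log2 ratio of 1.35. Btg2, an antiproliferative cofactor of mRNA deadenylation, was 19.9, 24.7 and 41.4 CPM in high-Fos and 9.61, 13.2 and 16.4 CPM in low-Fos mice, a log2 ratio of 1.09. Trib1, a pseudokinase that brings substrates to a ubiquitin ligase, was 15.1, 16.7 and 19.5 CPM in high-Fos and 6.90, 10.4 and 12.6 CPM in low-Fos mice, a log2 ratio of 0.70. Each of these brakes was thus above the low-Fos range in all 6 high-Fos mice, Dusp1 by the narrowest margin. Sik1, a kinase that restrains CREB coactivators, had a log2 ratio of 0.71, with 12.1 to 22.2 CPM in high-Fos and 7.43 to 13.4 CPM in low-Fos mice. Dusp6, Dusp5, Per1 and Plk3 had log2 ratios of 0.35, 0.35, 0.33 and 0.33 with overlapping groups. Pim1 had the lowest, -0.36, at levels of 0.592 to 1.86 CPM in high-Fos mice.

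**Figure D2:**
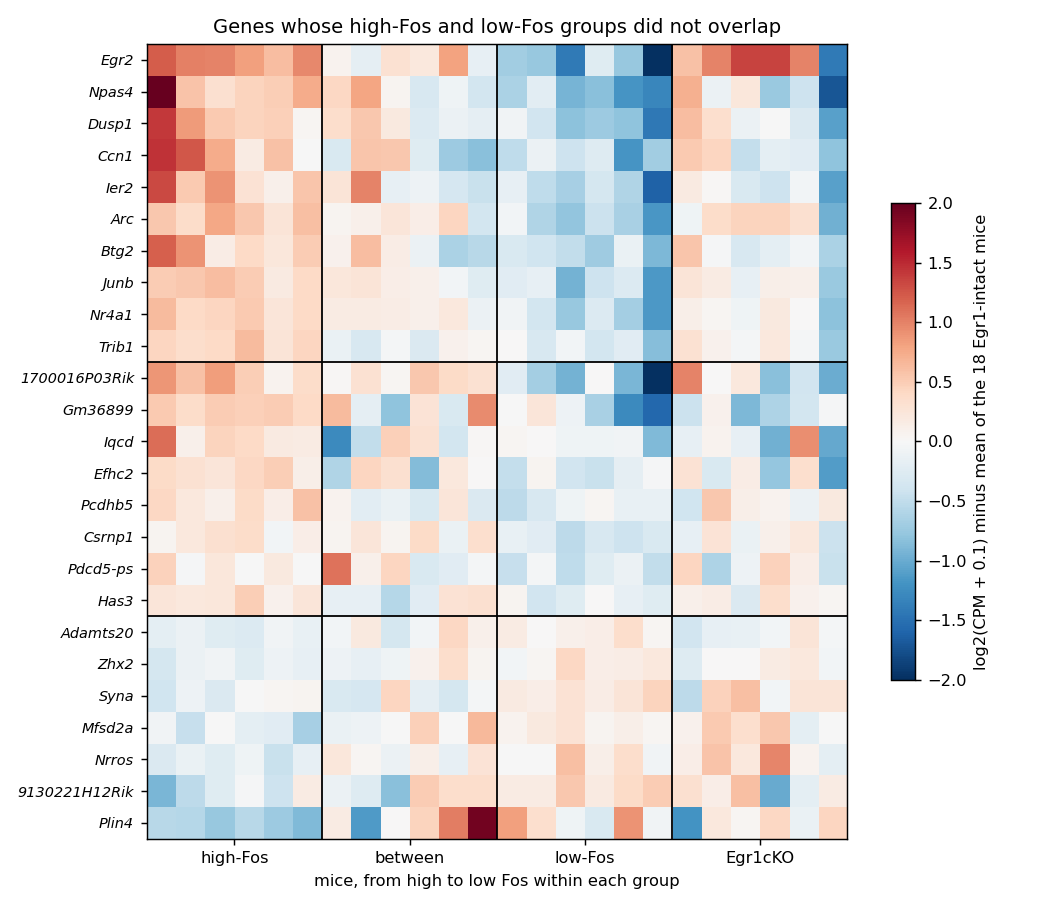
Levels of the 10 activity genes whose groups did not overlap (top block), of 8 other genes higher in high-Fos mice (middle block) and of 7 lower (bottom block), as log2(CPM + 0.1) minus the mean of the 18 Egr1-intact mice, with colours limited to a difference of 2. Columns are mice from high to low Fos within each group. The top block shifts from red to blue across the ranked mice. The 6 Egr1cKO mice on the right are ordered by their own Fos, and not every gene falls in that order. Arc, for example, was 157 CPM in the first of them, 227 CPM in the third and 85.5 CPM in the last.

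For each of the 10 activity genes the median of the mice between the groups lay between the high-Fos and the low-Fos median. Arc, for example, had a median of 181 CPM between 242 and 108 CPM, and Dusp1 had 18.5 CPM between 25.4 and 10.5 CPM. When the mice were ranked by Arc, Npas4 and Junb in place of Fos, 5 of the 6 high-Fos and 5 of the 6 low-Fos mice were chosen again. This was in part fixed, since all of these genes were already apart between the groups. Only mice between the groups could take a place, so the overlap is no independent check. TMM factors gave the same 6 and 6 mice.

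The choice of mice affected the counts. Without the female Egr1wt NesCre+ replicate 1, 36 genes were higher and 39 lower without overlap, and 13 of the 60 activity genes were higher. Leaving out each of the 12 mice in turn gave 30 to 49 genes higher and 25 to 54 lower, both the most without the male Egr1f NesCre- replicate 3. All of these exceeded the 23 and 15 of the full groups, since smaller groups overlap in fewer genes. Why that mouse gave the most was not tested. The 10 activity genes stayed apart in each of these cases, and also after the mice with at least 100 CPM of Ttr were left out. This was fixed in advance, since groups that do not overlap stay apart when mice are removed. Without the mice rich in Ttr, 108 of the 15150 genes (0.713%) were higher without overlap. Among Egr1wt mice alone, with 4 against 4, 3.74% of all genes were higher without overlap. All 10 activity genes stayed apart there, which was fixed as well, since these mice all came from the same high-Fos and low-Fos groups. Among Egr1f NesCre- mice alone, with 3 against 3, 5 of the 10 stayed apart, beside 2.65% of all genes. When the mice were ranked within each sex, 8 of 10 stayed apart, and with 9 against 9, 4 did. The ratio of each of the 10 genes was above 1 in all of these alternatives, the lowest log2 ratio being 0.14 among Egr1f NesCre- mice. A ratio above 1 was likewise fixed where mice were only left out and among Egr1wt mice.

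**Figure D3:**
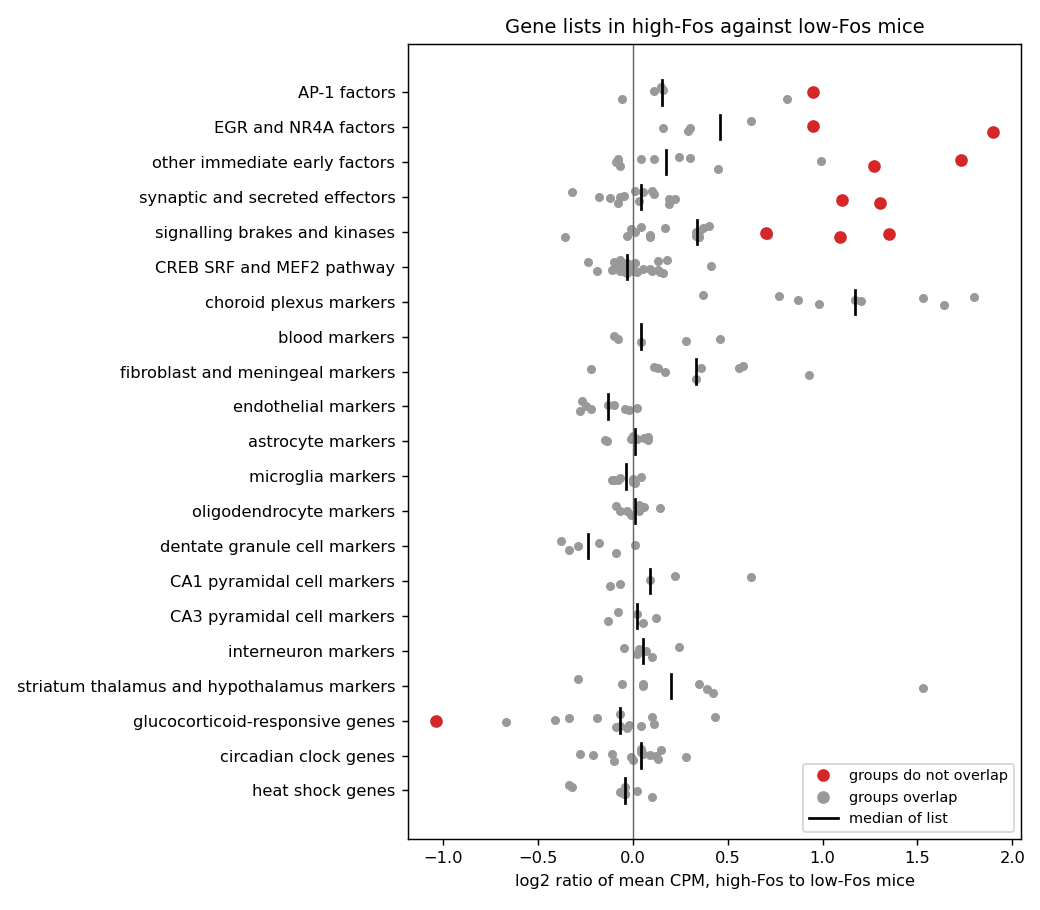
Log2 ratio of mean CPM, high-Fos to low-Fos mice (x axis), of each gene (points) of 21 lists (y axis). Red points are genes whose groups did not overlap and black bars are list medians. Red points to the right of 0 lie in the 5 activity lists only among the lists drawn, and the single red point to the left is Plin4.

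The mRNAs of proteins that act upstream of immediate early genes were described as well. The levels and the phosphorylation of these proteins were not measured. The list held 31 genes for CREB, SRF, MEF2, their cofactors, and the calcium, MAP and protein kinase A enzymes that act on them. None was apart (0 higher and 0 lower), beside 0.152% and 0.0990% of all genes. At these shares a list of this length mostly holds none, so the count does not set it off from other genes. The median log2 ratio of the 31 genes was -0.03. They ranged from -0.24 to 0.41, and the highest was Mef2c, with 329.6 CPM in the female Egr1wt NesCre+ replicate 1 and medians of 142 and 134 CPM in high-Fos and low-Fos mice. Srf, which binds the serum response element of the Fos promoter, had a log2 ratio of -0.02.

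Lists of other cell types and states were measured beside the activity genes. All 9 measured choroid plexus markers had a ratio above 1, with a median log2 ratio of 1.17, but none was apart. Their summed level was 42.4, 51.0 and 2183 CPM in high-Fos and 41.0, 64.4 and 845 CPM in low-Fos mice (lowest, median, highest), so the median was higher in low-Fos mice and the mean followed the libraries rich in Ttr. Fibroblast and meningeal markers had a median of 0.33, with summed levels of 31.5 to 145 CPM in high-Fos and 47.7 to 88.2 CPM in low-Fos mice. Their part in the result was not tested. Dentate granule cell markers had a median of -0.23, with summed levels of 262 to 498 CPM in high-Fos and 428 to 562 CPM in low-Fos mice. Markers of astrocytes, microglia, oligodendrocytes, interneurons, CA1 and CA3 pyramidal cells and blood had medians between -0.04 and 0.09, and endothelial markers had -0.13. Markers of striatum, thalamus and hypothalamus had a median of 0.20, and the EGR corepressors Nab1 and Nab2 had 0.17 and 0.04. Heat shock genes, which respond to handling of tissue, had a median of -0.04, and genes of the circadian clock 0.04.

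Genes that respond to glucocorticoids had a median log2 ratio of -0.07. Of 14 genes 0 were higher and 1 was lower without overlap, beside 0.152% and 0.0990% of all genes. That gene was Plin4, which coats lipid droplets, with 2.40, 2.83 and 3.04 CPM in high-Fos and 3.63, 5.01 and 8.41 CPM in low-Fos mice, a log2 ratio of -1.04. It was the lowest ratio among the 15 genes that were lower without overlap. In the mice between the groups Plin4 was 1.99, 5.59 and 17.4 CPM, so its median there was above that of the low-Fos mice. The value of 17.4 CPM belonged to the female Egr1f NesCre- replicate 3. Egr1f NesCre- mice were 1 of the 6 high-Fos and 2 of the 6 low-Fos mice, and the part of genotype in this ratio was not tested. Zbtb16 and Fkbp5, which are induced by glucocorticoids, had -0.41 and -0.34 with overlap. Of the 14 genes 4 had a ratio above 1, with Pdk4 the highest at 0.43 on the log2 scale and Sgk1 at 0.11, and besides Plin4 only Hif3a was at -0.5 or below (-0.67, with overlap).

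Outside the lists, the gene with the highest ratio among those without overlap was 1700016P03Rik, the host transcript of miR-212 and miR-132, a microRNA pair known to be induced by CREB. The transcript lies at chr11:75172560-75177633 of GRCm38, and the hairpins lie inside it. It was 6.27, 8.74 and 11.1 CPM in high-Fos and 1.36, 3.41 and 6.01 CPM in low-Fos mice, a log2 ratio of 1.26. The mature microRNAs were not measured. Their 3p strands are shown because they share the seed, bases 2 to 8 in capitals, as given by RefSeq on GRCm38.p6.
mmu-miR-132-3p: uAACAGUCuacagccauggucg
mmu-miR-212-3p: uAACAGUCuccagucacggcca

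The 7 other named genes that were higher without overlap were Gm36899, Iqcd, Efhc2, Pcdhb5, Csrnp1, Pdcd5-ps and Has3. Gm36899, a long noncoding RNA, was 1.75 to 1.96 CPM in high-Fos and 0.380 to 1.59 CPM in low-Fos mice, with a log2 ratio of 0.95. Csrnp1, a nuclear protein induced by growth signals, was 9.28 to 12.4 CPM in high-Fos and 6.63 to 8.64 CPM in low-Fos mice, with a log2 ratio of 0.51. Has3, a hyaluronan synthase, was 5.65 to 7.46 CPM in high-Fos and 4.03 to 5.48 CPM in low-Fos mice, with a log2 ratio of 0.42. Among Egr1f NesCre- mice alone the log2 ratios of Gm36899 and Has3 were -0.38 and -0.19. The log2 ratios of Iqcd, Efhc2, Pcdhb5 and Pdcd5-ps were 0.64, 0.60, 0.51 and 0.50. Pdcd5-ps is a processed pseudogene, and its reads may belong to a related gene.

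Besides Plin4, the named genes that were lower without overlap had small ratios. Mfsd2a, the lipid transporter of the blood-brain barrier, had medians of 17.7 CPM in high-Fos and 21.8 CPM in low-Fos mice, with a log2 ratio of -0.39. The mice between the groups had a median of 20.4 CPM. Their highest values, 31.9 and 28.3 CPM in the female Egr1f NesCre- replicates 3 and 2, were above every low-Fos mouse. The part of genotype in the ratio of Mfsd2a was not tested. The log2 ratio of Nrros, a microglial protein that presents TGF-beta, was -0.41. Syna, Zhx2 and Adamts20 had -0.36, -0.33 and -0.31. The antisense gene 9130221H12Rik had -0.66, but in these libraries, which do not mark strand, its reads cannot be told apart from those of the gene on the other strand.

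Promoter sequences were examined for the CRE core, TGACG on either strand, the site that CREB binds. RefSeq windows on GRCm38.p6, from 250 bases before to 50 bases after a start, matched 7 of the 10 activity genes that were apart. All 7 held the core in at least 1 window. The core was held by 21 of 38 activity genes whose groups overlapped (55.3%), by 34.4% of the 11187 measured genes with a window and by 20.8% of all 32851 windows. The full palindrome TGACGTCA, which contains the core on both strands, was held by 2 of the 7 genes and by 3.50% of the 11187. A match describes letters only and does not show a bound site. The windows of Fos, by which mice were ranked, and of 4 genes that were apart are given 5′ to 3′ on the strand of the gene, with TGACG and its complement CGTCA in capitals. They are chr12:85473640-85473939 (Fos, plus strand), chr19:4989922-4990221 (Npas4, minus), chr17:26508423-26508722 (Dusp1, minus), chr1:134079106-134079405 (Btg2, minus) and chr15:101266596-101266895 (Nr4a1, plus).
Fos: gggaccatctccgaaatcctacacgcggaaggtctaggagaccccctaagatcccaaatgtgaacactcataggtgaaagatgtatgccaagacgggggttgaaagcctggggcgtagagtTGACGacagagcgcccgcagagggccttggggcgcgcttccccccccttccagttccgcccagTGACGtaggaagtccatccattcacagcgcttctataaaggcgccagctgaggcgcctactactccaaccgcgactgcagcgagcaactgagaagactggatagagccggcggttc
Npas4: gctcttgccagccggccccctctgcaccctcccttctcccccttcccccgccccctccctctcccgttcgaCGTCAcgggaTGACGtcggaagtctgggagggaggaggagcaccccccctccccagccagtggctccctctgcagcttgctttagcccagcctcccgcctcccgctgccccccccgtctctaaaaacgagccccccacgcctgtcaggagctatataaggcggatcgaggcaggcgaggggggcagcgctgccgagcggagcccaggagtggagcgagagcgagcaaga
Dusp1: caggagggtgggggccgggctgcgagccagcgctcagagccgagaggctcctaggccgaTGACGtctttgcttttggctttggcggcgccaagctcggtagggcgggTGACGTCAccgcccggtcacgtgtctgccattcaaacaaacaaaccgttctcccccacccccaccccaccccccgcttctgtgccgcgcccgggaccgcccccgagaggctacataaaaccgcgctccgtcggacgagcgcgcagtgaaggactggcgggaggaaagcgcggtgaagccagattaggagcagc
Btg2: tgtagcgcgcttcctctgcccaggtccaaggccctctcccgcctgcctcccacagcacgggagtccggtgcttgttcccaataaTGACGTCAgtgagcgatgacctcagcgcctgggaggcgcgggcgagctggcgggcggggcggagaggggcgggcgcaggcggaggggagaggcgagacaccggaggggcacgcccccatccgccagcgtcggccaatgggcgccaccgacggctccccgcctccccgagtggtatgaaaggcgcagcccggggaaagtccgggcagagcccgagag
Nr4a1: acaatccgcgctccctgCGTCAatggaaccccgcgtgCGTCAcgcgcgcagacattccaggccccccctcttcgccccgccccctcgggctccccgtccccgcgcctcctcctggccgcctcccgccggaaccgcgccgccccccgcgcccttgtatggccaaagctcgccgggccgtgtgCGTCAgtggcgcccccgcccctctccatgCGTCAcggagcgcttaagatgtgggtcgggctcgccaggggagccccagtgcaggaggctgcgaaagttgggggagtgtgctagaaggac
The core occurs 2 times in the Fos window and 4 times in that of Nr4a1, counted on both strands, and the palindrome is seen in those of Dusp1 and Btg2.

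The labelled groups were then tested for differences in these genes among the 18 mice, with edgeR's quasi-likelihood test. Arc was 206 ± 52.4 CPM in Egr1wt NesCre-, 148 ± 62.1 CPM in Egr1wt NesCre+ and 177 ± 61.5 CPM in Egr1f NesCre- mice (mean ± SD, n = 6 each). Egr2 was 8.76 ± 2.89, 5.09 ± 4.20 and 5.89 ± 2.88 CPM in the same order, and Junb was 91.9 ± 19.8, 71.0 ± 31.0 and 81.0 ± 20.2 CPM. The spread within a genotype was similar in size to the differences between genotypes. No gene of 18251 was called for genotype (0%) at an adjusted p of at most 0.05, with 919 genes at an unadjusted p under 0.05. Among 61 activity genes tested, 13 had an unadjusted p under 0.05, the lowest adjusted p being 0.163 for Per1. The likelihood ratio test of DESeq2 called 16 of 31477 genes with an adjusted p, and 3 of 62 activity genes, Per1, Scg2 and Tiparp. Without a filter on low counts edgeR called 235 of 35620 genes, and 16 of 62 activity genes. The latter included Arc, Egr2, Junb, Npas4, Nr4a1 and Btg2, which were not called with the filter.

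Sex separated no activity gene in the main test. Between 9 females and 9 males edgeR called 4 genes higher (0.0219%) and 6 lower in females (0.0329%), of which Xist was the highest and the Y-linked genes Eif2s3y and Ddx3y were the lowest, and 0 of 61 activity genes. In females Arc was 181 ± 57.5 CPM, against 173 ± 66.5 CPM in males (mean ± SD, n = 9 each), and for Junb the values were 80.2 ± 24.5 and 82.4 ± 25.7 CPM. At an unadjusted p under 0.05 there were 730 genes, 5 of them on the activity lists. Of those 5, Inhba and Nptx2 were called higher in females by edgeR without the filter on low counts, and DESeq2 called no activity gene.

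The 6 Egr1cKO mice were spread along the Fos axis. Egr1 was 4.98 to 9.68 CPM in the Egr1cKO mice, against 48.3 to 148 CPM over the 18 others. Fos in the Egr1cKO mice was 27.0 CPM in male replicate 3, 24.6 in female replicate 2, 21.1 in female replicate 3, 16.1 in male replicate 2 and 4.70 in male replicate 1. Female replicate 1 lay between female replicate 3 and male replicate 2. On this axis 1 mouse lay at or above the lowest high-Fos mouse and 1 at or below the highest low-Fos mouse. Arc in these mice, from high to low Fos, was 157, 215, 227, 225, 208 and 85.5 CPM, which put 4 of 6 in the high-Fos range and 2 in the low-Fos range. Egr2 likewise had 4 of 6 at or above the lowest high-Fos value. Npas4 in the same order was 26.9, 15.1, 19.1, 9.72, 12.3 and 4.94 CPM, with 1 mouse in the high-Fos and 3 in the low-Fos range. For Junb, with a median of 83.2 CPM, 1 mouse was in each range. For Nr4a1 none of the 6 reached the high-Fos range and 2 were in the low-Fos range. The Egr1cKO mice therefore did not take 1 place on the axis for all genes.

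**Figure D4:**
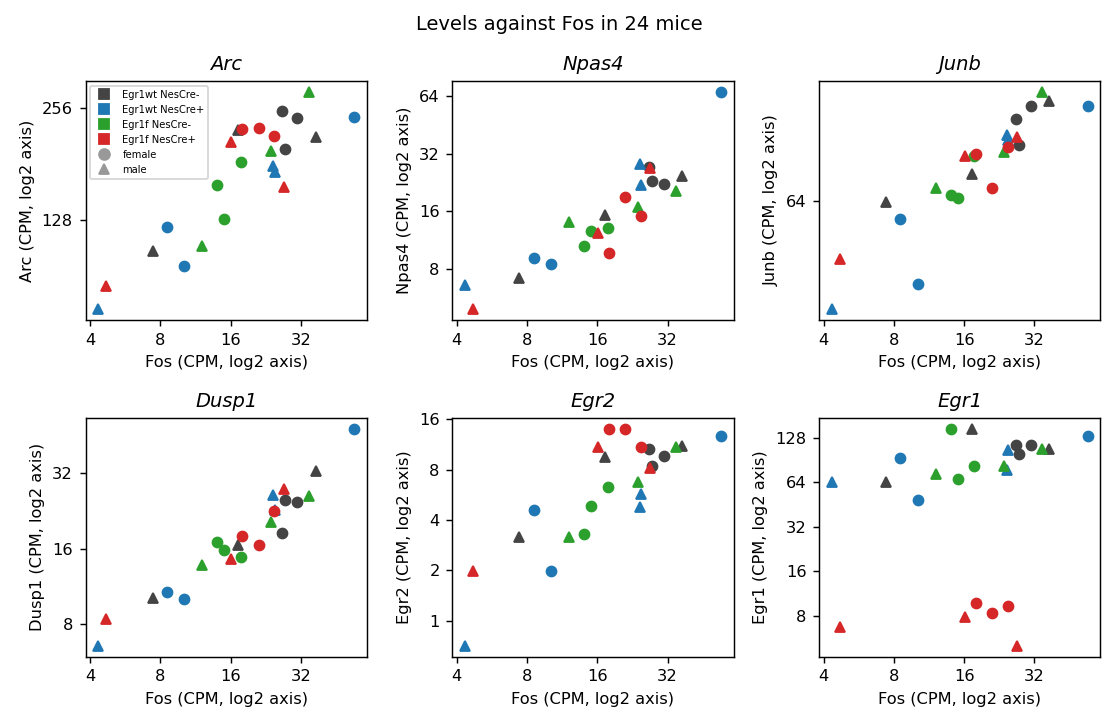
Levels of Arc, Npas4, Junb, Dusp1, Egr2 and Egr1 (y axes) against Fos (x axes) in each of the 24 mice, in CPM on log2 axes, coloured by genotype with circles for females and triangles for males. In the first 5 panels the high-Fos mice lie to the upper right of the low-Fos mice and the Egr1cKO mice fall on both sides, while in the Egr1 panel the Egr1cKO mice lie between 4.98 and 9.68 CPM.

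The test of the 6 Egr1cKO mice against the 18 others called Egr1 alone. Of 18433 genes edgeR called 0 higher (0%) and 1 lower (0.00543%), Egr1, with a log2FC of -3.59 (SE 0.225, adjusted p = 1.2e-11). At an unadjusted p under 0.05 there were 2786 genes, 8 of them among the 61 activity genes tested, and DESeq2 called 17 higher and 25 lower, with 0 activity genes. The log2FC was 0.11 for Arc, -0.37 for Npas4, -0.05 for Junb and 0.36 for Fosb, with adjusted p of 0.836, 0.635, 0.917 and 0.394 in edgeR. Without Egr1cKO male replicate 3, which had high Mef2c, 90 genes were called higher and 125 lower, without male replicate 2 it was 4 and 4, without male replicate 1 it was 1 and 2, and no activity gene was called in any of these fits. Against the Egr1f NesCre- mice alone the log2FC of Npas4 was 0.02.

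A change of the Egr1cKO difference between females and males was tested over all 24 mice. edgeR called 1 of 19742 genes (0.00507%), the mucin gene Muc3a, and 1216 genes had an unadjusted p under 0.05. No activity gene was called by edgeR or by DESeq2, which called 4 genes. The interaction was above 0 for 44 of 61 activity genes, with 9 at an unadjusted p under 0.05, and the lowest adjusted p was 0.457, for Fosl2, with an interaction of 0.91 on the log2 scale.

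The relation to Fos was tested in the Egr1cKO mice, which the ranking had not used. A slope on log2 Fos CPM was fitted over these 6 mice for 18208 genes, Fos left out, with edgeR. No gene was called with a positive slope (0%) and 2 with a negative slope (0.0110%), Lars2 and Gm24270, with 556 genes at an unadjusted p under 0.05. Of the 61 activity genes none was called, the lowest adjusted p being 0.284, for Dusp1. At an unadjusted p under 0.05, 17 of the 61 had a positive slope, beside 2.08% of all genes. Those 17 included the 10 genes that were apart in the Egr1-intact mice, whose slopes ran from 0.33 to 0.98 with a median of 0.46. Of the 8 other named genes that were higher without overlap 6 had a positive slope and 1 an unadjusted p under 0.05, and of the 8 that were lower 5 had a negative slope and 0 such a p. A slope of 1 means that a gene changes in proportion to Fos. The slope was 0.98 for Egr2, 0.85 for Npas4, 0.61 for Dusp1, 0.50 for Arc, 0.36 for Junb and 0.36 for Nr4a1. DESeq2 called 13 genes, among them Arc, Dusp1, Egr2, Junb, Npas4 and Nr4a1.

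Many of the slopes depended on the single Egr1cKO mouse with low Fos. Without male replicate 1 the slope was -0.67 for Egr2, -0.47 for Arc, -0.15 for Fosb and -0.08 for Nr4a1, and the median over the 61 activity genes was -0.09 in place of 0.14. Of the 61 genes 28 then had a slope above 0, in place of 47. At an unadjusted p under 0.05 there were 12 of the 61, of which 6 had a positive slope, beside 4.24% of all genes. In these 5 mice the slopes of Npas4 and Dusp1 were 1.43 and 1.03, with 1 gene of 17860 called with a positive slope and 0 with a negative one, and 0 activity genes. Without male replicate 3, which had the highest Fos, 2 genes were called with a positive and 3 with a negative slope, and both of the former, Arc and Fosb, were activity genes. No gene was called with a negative slope without female replicate 1 or female replicate 3, and 1 was without male replicate 2.

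**Figure D5:**
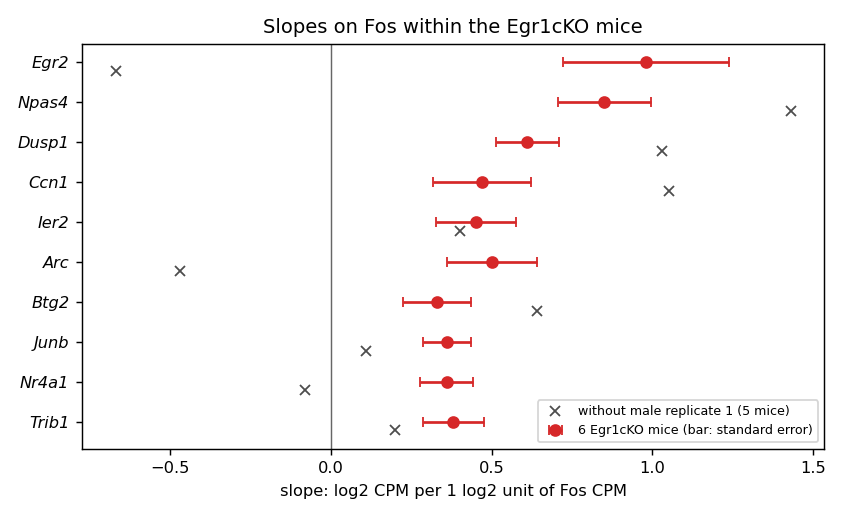
Slopes of the 10 activity genes on Fos within the 6 Egr1cKO mice (x axis, log2 CPM per log2 unit of Fos CPM), with bars for standard errors. Crosses are the slopes in 5 mice without male replicate 1, which lie below 0 for Egr2, Arc and Nr4a1 and above 0 for the other 7.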

How the data were processed

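Genotype, sex and replicate number came from the sample labels, and each sample was 1 mouse. After extraction with an RNeasy kit, the authors sequenced non-stranded paired-end libraries on the NovaSeq platform, trimmed reads with Trim Galore and mapped and counted them with STAR on mm10, also called GRCm38. The submitters' processing notes list Trim Galore 3.8.2, FastQC and STAR 2.7.9. The annotation used for counting is not given in the sources used here. The authors deposited raw counts per gene, whole numbers without normalization, for 36605 genes, and a table of sample names that was not used here.

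CPM were computed from the deposited counts and the total of each mouse, with no TMM factors. Symbols came from GENCODE M21 for 36493 genes. High-Fos and low-Fos mice were compared over genes with a mean of at least 1 CPM. A ratio is that of the 2 group means, and a gene was called apart where the groups of 6 did not overlap. Tests used edgeR 4.0.16 in R 4.3.3 with TMM, filterByExpr (minimum count 10) and its quasi-likelihood fit, and p-values were adjusted by Benjamini-Hochberg over all genes tested. A call needed an adjusted p of 0.05 or less and, for comparisons of 2 groups, a fold change of at least 1.2. The tests were checked on simulated data. Sequences came from RefSeq. Within each group, the counts of every pair of mice differed by more than sampling noise. The authors' own tests were not used.

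Named genes were Arc, Npas4 and Junb, the activity genes that were apart, and the 8 highest and 8 lowest of the others. In tested comparisons they were the activity genes called, these 3 genes and Fosb, and up to 3 other called genes in each direction. Other genes were named as examples of a list or because a mouse stood apart in them. A few named or listed genes are not reported here. The members, lists and tests were chosen with earlier results of these data known. Alternatives were DESeq2 1.42.0, its size factors in edgeR, other filters and covariates, other group sizes and rankings, single genotypes, replicate blocks and single mice left out. Leaving out mice with at least 100 CPM of Ttr was added after seeing the data.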

Additional observations from a re-analysis of the deposited data

Results flagged for a closer look

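Levels of the named genes and Fosb were searched, within each genotype of 6 mice, for a mouse far from the other 5. Such a mouse was found in 11 of 116 groups, where chance gives about 1 in 20. That rate is only a rough guide, since the same mice recur and most of these genes were named for separating mice by Fos. The male Egr1wt NesCre- replicate 2, a low-Fos mouse, was below the other mice of its genotype in Fosb (6.44 CPM), Egr2 (3.18 CPM), Arc (106 CPM) and Nr4a1 (54.6 CPM), and above them in Nrros (10.6 CPM). The female Egr1wt NesCre+ replicate 1, the mouse with the highest Fos, was above the others of its genotype in Npas4 (67.3 CPM) and Iqcd (2.46 CPM). The male Egr1f NesCre- replicate 3, a high-Fos mouse, was above the others in Ier2 (13.0 CPM) and Junb (119 CPM). Among Egr1cKO mice, male replicate 1 was below the others in Nr4a1 (50.0 CPM). In Plin4 the female Egr1f NesCre- replicate 3 was above the others of its genotype (17.4 CPM).

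The effect of Egr1cKO on Muc3a differed between the sexes, by -1.67 on the log2 scale, females minus males (SE 0.262, adjusted p = 0.0140, edgeR interaction test over 24 mice). Muc3a was 3.58, 3.25 and 3.41 CPM in the female Egr1cKO mice, 7.99, 11.4 and 14.4 CPM in the male Egr1cKO mice and 9.44 to 18.8 CPM in the Egr1-intact mice.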

How the results depend on the processing

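The numbers of genes higher and lower without overlap, 23 and 15, were 306 and 222 with 4 against 4 mice, 5 and 3 with 9 against 9, 14 and 21 when ranked by Arc, Npas4 and Junb, 567 and 350 among Egr1wt mice, 402 and 741 among Egr1f NesCre- mice, and 108 and 167 without mice with at least 100 CPM of Ttr, an alternative added after seeing the data. Smaller groups overlap in fewer genes by construction. Without a filter on mean CPM 26 were lower. Leaving out 1 mouse in turn gave 30 to 49 higher and 25 to 54 lower, and each of the 12 omissions raised the latter by over 1.5 times. Activity genes apart were 4 with 9 against 9, 5 of 57 when ranked by Arc, Npas4 and Junb, which were then left out, and 10 to 13 with 1 mouse left out. Among Egr1wt mice 1 activity gene was lower, and among Egr1f NesCre- mice 1. The log2 ratios of Gm36899 and Has3 reversed to -0.38 and -0.19 among Egr1f NesCre- mice. The causes were not tested.

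For Egr1cKO against Egr1-intact mice, genes called higher and lower were 17 and 25 with DESeq2, 3 and 4 without the filter, 1 and 2 with sex as a covariate, 2 and 1 against Egr1f NesCre- mice, 10 and 9 without the mice rich in Ttr, and 0 to 90 and 1 to 125 with 1 Egr1cKO mouse left out. The log2FC of Npas4 was 0.02 against Egr1f NesCre- mice, and that of Junb ran from -0.10 to 0.06 with 1 Egr1cKO mouse left out, highest without male replicate 1, and was 0.00 without the mice rich in Ttr. For sex, 7 genes were higher with DESeq2, and 24 were higher and 23 lower without the filter, 2 of them activity genes. For genotype, 16 genes (3 activity) were called with DESeq2 and 235 (16 activity) without the filter. For the interaction with sex DESeq2 called 4.

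For the slope on Fos, genes called with positive and negative slopes were 8 and 5 with DESeq2 (6 activity genes) and 4 and 5 without the filter (2 activity genes). No negative slope was called with sex as a covariate or with Fos CPM without log (0 in both). With 1 Egr1cKO mouse left out there were 0 to 2 positive, 0 to 3 negative and 0 to 2 activity genes, and the slopes ran from -0.47 to 0.63 for Arc, -0.15 to 0.74 for Fosb, -0.67 to 1.18 for Egr2 and -0.08 to 0.39 for Nr4a1, lowest without male replicate 1 and highest without male replicate 3.

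Replicate numbers only name the mice. Of 84 pairs of same-numbered mice 18 had deviations that correlated above 0.1 (mean -0.00505, range -0.321 to 0.410). With a replicate block, 0 genes were called higher and 1 lower in Egr1cKO mice, 3 higher and 5 lower in females, and 0 for genotype. For the slope on Fos, a replicate block added after seeing the data left 0 genes called in either direction, against 2 negative. No pairing was possible for high-Fos and low-Fos mice, which come from no test.

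Counts near 1 CPM rest on about 18 to 35 reads per mouse, and with 6 Egr1cKO mice the slopes are limited by the number of mice.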

Other observations

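Within the Egr1cKO mice the 2 genes called for the slope on Fos had negative slopes. Lars2, the mitochondrial leucyl-tRNA synthetase, had a slope of -0.62 (SE 0.0721, adjusted p = 0.0359, edgeR, 6 mice), and Gm24270, a gene annotated as a miRNA, had a slope of -0.74 (SE 0.0722, adjusted p = 0.0136). Lars2 was 637 CPM in male replicate 1, the Egr1cKO mouse with the lowest Fos, and between 208 and 257 CPM in the other 5. Without that mouse 0 genes had a called negative slope, as without female replicate 1 or female replicate 3, with sex as a covariate, with a replicate block or with Fos CPM without log. In the Egr1-intact mice Lars2 did not separate by Fos, with 263, 372 and 707 CPM (lowest, median, highest) in high-Fos and 271, 401 and 545 CPM in low-Fos mice.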
